A study of Mus musculus with 5 samples.

Results

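The Siglec genes encode receptors of the leukocyte surface that bind sialic acid, the sugar that caps many glycans. The 7 genes described here, Siglec1, Siglece, Siglecf, Siglecg, Siglech, Cd33 and Cd22, were chosen by exact gene symbol from the 55291 symbols of the count tables, and all 7 were found. The sequenced RNA came from bone marrow cells of mice, labelled as monocytes, from 3 wild-type samples (replicates 1, 2 and 3) and 2 samples labelled Tet2 mutant (replicates 2 and 3). Age, strain, the kind of Tet2 mutation, and how the cells were isolated were not found in the labels, nor was it stated whether each sample came from a separate animal. The p-values therefore reflect how far these samples spread, and that spread may be technical. Libraries are named by genotype and replicate number.

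Most Siglecs carry a cytoplasmic tyrosine motif called ITIM. Once phosphorylated by Src family kinases it recruits the phosphatases encoded by Ptpn6 and Ptpn11, and this dampens activating receptors on the same cell. Siglec1 has no such motif and works as an adhesion receptor of macrophages, while Siglech signals through the adaptor encoded by Tyrobp. In the mouse each family member is best known from a different leukocyte. Siglec1 marks tissue macrophages including those of the marrow, Cd33 and Siglece mark neutrophils and monocytes, Siglecf marks eosinophils, Siglech marks plasmacytoid dendritic cells, and Cd22 and Siglecg mark B cells. In bulk RNA of this kind, fewer cells of a type and less RNA per cell cannot be told apart.

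In the GENCODE M21 annotation of GRCm38, the build that mm10 denotes, 6 of the 7 genes lie on chromosome 7. Siglecf (43351341 to 43359531), Siglecg (43408204 to 43418358), Cd33 (43524216 to 43544428) and Siglece (43651070 to 43660161) form a cluster of neighbours. Cd22 (30865402 to 30880342) and Siglech (55768178 to 55778925) lie apart on the same chromosome, and Siglec1 is on chromosome 2 (131069220 to 131086765). Among all 50-base stretches of their annotated transcripts, the one pair of members that shared any was Siglecf and Siglecg, and 6 of 2915 stretches of Siglecf (0.206%) occurred in another gene. The share found in any other gene was 7.84% for Cd22 and 4.64% for Siglecg, and under 2% for the other five. Cd22 is overlapped by the antisense gene Gm29439, which had 3 counts in wild-type library 1 and 0 in the other four libraries. Whether the counting used strand is not given, so reads of that pair cannot be told apart.

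Cd22 and Siglecg were both highest in mutant library 3. Cd33 and Siglece are cluster neighbours whose count ratio did not overlap between the genotypes, which held for 53.0% of all pairs of tested genes. The promoters of these 4 genes are printed here. Each is the 250 bases before the RefSeq start in GRCm38.p6, 5′ to 3′ on the gene's strand. The windows are chr7:30879029-30879278 (minus strand) for Cd22, chr7:43407989-43408238 (plus) for Siglecg, chr7:43533172-43533421 (minus) for Cd33 and chr7:43660162-43660411 (minus) for Siglece. The windows of Cd22 and Cd33 lie inside the GENCODE genes given above, as their RefSeq starts are internal to those genes. The last bases of the Siglecg window also lie inside its GENCODE gene. Capitals mark GAGGAA, the core letters bound by the myeloid and B cell factor PU.1, or its reverse complement TTCCTC.
Cd22: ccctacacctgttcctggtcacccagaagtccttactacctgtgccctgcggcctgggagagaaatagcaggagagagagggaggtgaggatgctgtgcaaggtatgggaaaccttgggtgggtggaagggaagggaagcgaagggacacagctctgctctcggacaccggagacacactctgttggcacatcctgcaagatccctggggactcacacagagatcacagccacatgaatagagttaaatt
Siglecg: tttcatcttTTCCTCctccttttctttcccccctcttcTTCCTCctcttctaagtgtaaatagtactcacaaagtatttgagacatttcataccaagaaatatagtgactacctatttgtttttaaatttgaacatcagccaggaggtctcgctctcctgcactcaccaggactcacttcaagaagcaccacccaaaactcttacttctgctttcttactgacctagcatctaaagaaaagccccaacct
Cd33: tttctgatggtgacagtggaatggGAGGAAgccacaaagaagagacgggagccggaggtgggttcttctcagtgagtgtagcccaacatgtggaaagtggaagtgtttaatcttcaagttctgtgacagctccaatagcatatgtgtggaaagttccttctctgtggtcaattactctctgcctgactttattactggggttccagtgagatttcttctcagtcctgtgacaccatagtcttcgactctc
Siglece: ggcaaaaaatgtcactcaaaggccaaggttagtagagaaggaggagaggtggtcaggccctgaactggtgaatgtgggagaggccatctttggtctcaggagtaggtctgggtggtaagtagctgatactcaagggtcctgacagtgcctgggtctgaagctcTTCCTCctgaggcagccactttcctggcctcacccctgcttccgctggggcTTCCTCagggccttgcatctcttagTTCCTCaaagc
Siglece held 3 such matches, Siglecg 2, Cd33 1 and Cd22 0. At least 1 match was present in 23.2% of 32851 promoter windows of this length, so a match is common. The octamer ATGCAAAT of B cell promoters was searched on both strands as well and is present in 1.60% of all windows. It was not found in these 4 windows, nor was TTGCNNAA, a form of the C/EBP site (9.56% of all windows). These letters describe the windows and do not show binding.

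The libraries held 53789308 to 72414875 counts in the wild type and 17459808 and 60508381 in mutant libraries 2 and 3, and 1 count equals 0.0119 to 0.0163 CPM in the wild type and 0.0792 and 0.0185 CPM in the mutant. CPM is the count scaled to a common library size after TMM adjustment, which sets library sizes so that most genes match. The mixture of cells went beyond monocytes: neutrophil markers summed to 24170 to 63510 CPM and classical monocyte markers to 1827 to 4211 CPM over the 5 libraries, with B cell markers at 1218 to 19770 CPM. Tet2 was at 9.77 to 11.9 CPM in the wild type, against 5.31 and 15.6 CPM in the mutant, and this level does not check the genotype label. Of 8 pancreatic acinar genes 7 were tested and all 7 were higher in the mutant libraries, with a sum of 39.55 to 55.4 CPM in the wild type against 533 and 1237 CPM. Of 10 conventional dendritic cell markers 5 rose, of 10 T and NK cell markers 4 rose, and of 7 erythroid markers 1 fell. The part of these other cells in the Siglec values was not tested.

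None of the 7 Siglec genes passed the test between the genotypes, although several stood far from the wild type in one mutant library or the other. edgeR's quasi-likelihood F-test, adjusted over 17062 genes, called 15.0% of all tested genes (10.6% higher and 4.43% lower in the mutant) and 0 of 7 members at an adjusted p under 0.05. Their unadjusted p was under 0.05 in 3 of 7 members, against 39.2% of all tested genes. Fold changes are given as log2 of mutant over wild type, and their median was -0.92 for the members and -0.07 for all tested genes. Both mutant libraries lay above every wild-type library for 1 member, Siglecg, where 22.9% of all genes did so. Both lay below every wild-type library for 3 members, Siglec1, Siglecf and Siglech, where 33.3% of all genes did so. These counts are near the background and say nothing particular about the family. Other tools called a few members: DESeq2 called Siglecg higher and Siglecf and Siglech lower, and limma-voom called Siglecg higher and Siglech lower. Those tools also called many other genes. DESeq2 called 3149 higher and 2380 lower of 30639 genes, and limma-voom 1837 higher and 1365 lower of 17062.

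**Figure D1:**
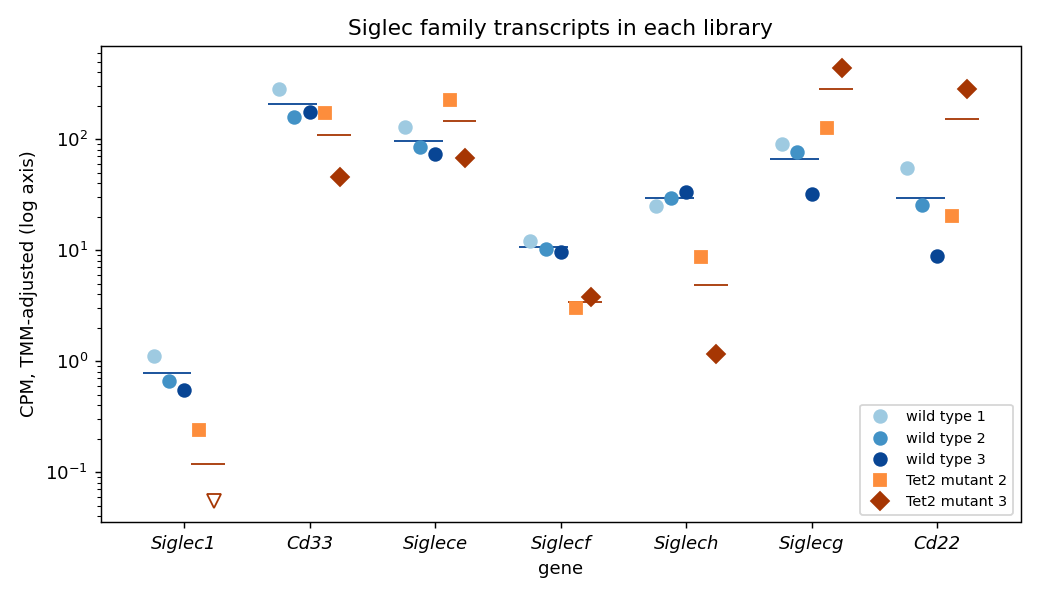
CPM of each Siglec gene (log axis) in the 3 wild-type libraries (blue circles) and in Tet2-mutant replicates 2 (orange square) and 3 (brown diamond), with short lines at the mean of each genotype and an open triangle at the level of 3 counts where a library had 0 counts. Of the members with counts in every library, Cd22 differs most between the mutant libraries, at 20.5 and 282 CPM, and both lie below the wild type for Siglec1, Siglecf and Siglech.

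The B cell inhibitory receptors Siglecg and Cd22 stood highest in one and the same mutant library. Siglecg restrains B-1 cells and their calcium response. It was at 91.2, 77.4 and 32.02 CPM in wild-type libraries 1, 2 and 3 and at 125 and 442 CPM in mutant libraries 2 and 3. Both mutant values lay above all wild-type values, but the mutant libraries differed 3.54-fold from each other and the wild-type libraries 2.85-fold. The wild-type mean was 66.9 ± 31.0 CPM (SD, n = 3) against a mutant mean of 283 ± 224 CPM (SD, n = 2). The log2 fold change was 2.08 ± 0.60 (SE, adjusted p = 0.0551). The separation also rested on the scaling. With plain library totals Siglecg in mutant library 2 was at 90.3 CPM, inside the wild-type range of 36.5 to 106.5 CPM. The gene passed without mutant library 2 (2.72, adjusted p = 0.00444) and stood at 0.90 (adjusted p = 0.199) without mutant library 3. In those fits 1 mutant library was left, and its spread was set by the wild type.

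Cd22, which sets the threshold of B cell receptor signalling, followed the same library. It was at 54.5, 25.3 and 8.83 CPM in wild-type libraries 1, 2 and 3 and at 20.5 and 282 CPM in mutant libraries 2 and 3. Replicate 2 of the mutant lay inside the wild-type range, and replicate 3 lay 13.8-fold above replicate 2. The wild-type mean was 29.5 ± 23.1 CPM (SD, n = 3) against a mutant mean of 151.5 ± 185 CPM (SD, n = 2). The log2 fold change was 2.36 ± 1.03 (SE, adjusted p = 0.134). The direction rested on 1 library: the estimate was 3.26 without mutant library 2 and -0.53 without mutant library 3.

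Most other B cell markers had the same direction as this pair, but not all. Of 14 B cell markers 5 rose and 0 fell, with a median of 1.82 on the log2 scale. Of all tested genes 10.6% rose. The log2 fold change was above 0 in 12 of the 14, but was only 0.11 in Ebf1. It was -0.52 in Cr2 and -2.57 in Fcer2a, which had 0.277 CPM in mutant library 3. The summed level of the 14 was 1218 to 5481 CPM in the wild type and 7216 and 19770 CPM in mutant libraries 2 and 3. Most of this sum came from Ighm alone, which gave 5478 and 10940 CPM of it in those mutant libraries and was not called. Cd79b, a subunit that carries signals of the antigen receptor, was at 45.9 to 168 CPM in the wild type, against 363 and 2449 CPM in the mutant (log2 fold change 3.54 ± 0.82, adjusted p = 0.0362). Ms4a1, which encodes CD20, went from 22.2 to 91.8 CPM in the wild type to 127 and 1119 CPM (3.40 ± 0.89, adjusted p = 0.0456). Fcmr, the Fc receptor for IgM, rose by 3.75 ± 0.90 (adjusted p = 0.0387). Without wild-type libraries 1, 2 and 3 in turn the number of B cell markers that rose was 0, 3 and 1. Those fits called 616 of 16164, 870 of 16075 and 842 of 16550 tested genes higher. With 1 mutant library left, the number of B cell markers that rose changed with the library, as did that over all tested genes, so no count is given.

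Set against the median of the B cell markers in the same library, both Siglecs overlapped between the genotypes. Siglecg lay 0.41, 0.60 and 1.19 log2 units above that median in wild-type libraries 1, 2 and 3 and 0.997 and 0.43 (on log2 of CPM + 0.1) in mutant libraries 2 and 3. Cd22 lay between -1.01 and -0.33 in the wild type and at -1.60 and -0.22 in the mutant. Against Cd79b alone both were scarcer in the mutant: Siglecg had 0.462 to 0.698 counts per Cd79b count in the wild type and 0.344 and 0.180 in mutant libraries 2 and 3, and Cd22 had 0.151 to 0.366 against 0.0566 and 0.115. The part of the B cell share in the Siglec values was not tested.

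Cd33 and Siglece, the myeloid pair, were, per length, the most abundant members of the wild-type libraries. Cd33 was at 284, 157 and 177 CPM in wild-type libraries 1, 2 and 3 and at 171 and 45.9 CPM in mutant libraries 2 and 3. Replicate 2 of the mutant lay within the wild-type range and replicate 3 lay below it. The wild-type mean was 206 ± 68.4 CPM (SD, n = 3) against a mutant mean of 109 ± 88.8 CPM (SD, n = 2). The log2 fold change was -0.92 ± 0.55 (SE, adjusted p = 0.241). It was -2.17 without mutant library 2 and -0.27 without mutant library 3, with 1 mutant library left in each fit. With plain library totals both mutant libraries, at 124 and 41.1 CPM, lay below the wild-type range of 182 to 332 CPM.

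Siglece, the inhibitory receptor that limits neutrophil recruitment and macrophage activation, was at 128, 85.9 and 74.15 CPM in wild-type libraries 1, 2 and 3 and at 226 and 67.6 CPM in mutant libraries 2 and 3. The mutant libraries fell on either side of the wild type. The wild-type mean was 96.1 ± 28.4 CPM (SD, n = 3) against a mutant mean of 147 ± 112 CPM (SD, n = 2). The log2 fold change was 0.61 ± 0.50 (SE, adjusted p = 0.377). The direction turned with the mutant library used, from 1.23 without mutant library 3 to -0.51 without mutant library 2.

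The ratio of these neighbours is free of library scaling. There were 0.451, 0.547 and 0.420 counts of Siglece per count of Cd33 in wild-type libraries 1, 2 and 3, and 1.32 and 1.47 in mutant libraries 2 and 3. Both mutant ratios lay above all wild-type ratios, by 1.57 on the log2 scale between the means. An exact two-sided permutation test over the 5 libraries gave p = 0.2, the smallest this design allows. Of the 21 ratios between members, 13 did not overlap between the genotypes and all 13 had that same p (0.323 after adjustment over the 21). Over all 145547391 pairs of tested genes 53.0% of ratios did not overlap, so neither the count nor the ratio of Siglece to Cd33 stands out by this measure.

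Neutrophil and monocyte genes gave a mixed background for this pair. Of 14 neutrophil markers 1 fell, Padi4 (log2 fold change -2.12 ± 0.49, adjusted p = 0.0362), and 13 did not pass, with a list median of -1.01. Padi4, the enzyme that citrullinates histones, lost the call without wild-type library 1 (adjusted p = 0.0957), a fit that called 6 of 16164 tested genes lower. In fits with 1 mutant library left, the number of falls changed with the library, as did that over all tested genes, so no count is given. Of 11 classical monocyte markers 3 rose (Ly86, Ms4a4c and Csf1r, the receptor of macrophage colony-stimulating factor). Itgam, the integrin chain CD11b, fell (-1.38 ± 0.34, adjusted p = 0.0408). Itgam did not pass once any wild-type library was left out, in fits that called only 6 to 18 of all tested genes lower. Against the neutrophil list median, Siglece lay at -4.63 to -4.33 log2 units in the wild type and at -2.53 and -1.87 in mutant libraries 2 and 3. Against the classical monocyte median it lay at -0.72 to -0.10 in the wild type and at -0.65 and -1.28 in the mutant, which overlap. Against the macrophage median it lay lower in the mutant, at 1.33 to 1.73 against 0.29 and -1.70, so its direction depended on the list. Against the neutrophil median Cd33 lay at -3.55 to -3.19 and at -2.93 and -2.42. Against the classical monocyte median Cd33 lay at 0.53 to 1.05 in the wild type and at -1.04 (replicate 2) and -1.84 (replicate 3) in the mutant.

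Siglecf, an inhibitory receptor that promotes the death of eosinophils, had the closest agreement between the mutant libraries. It was at 12.1, 10.3 and 9.65 CPM in wild-type libraries 1, 2 and 3 and at 3.01 and 3.75 CPM in mutant libraries 2 and 3. Both mutant libraries lay below all wild-type libraries and within 1.25-fold of each other. The wild-type mean was 10.7 ± 1.29 CPM (SD, n = 3) against a mutant mean of 3.38 ± 0.521 CPM (SD, n = 2). The log2 fold change was -1.66 ± 0.55 (SE, adjusted p = 0.0752). It passed in DESeq2 (-1.61, adjusted p = 0.000806), which called 2380 of 30639 genes lower, against 755 of 17062 in edgeR. The log2 fold change was -1.51 without mutant library 2 and -1.83 without mutant library 3. In those fits 1 mutant library was left, and its spread was set by the wild type. Siglecf did not pass in limma-voom (adjusted p = 0.0655) or without any 1 wild-type library (adjusted p = 0.305 to 0.342). The fits without wild-type libraries 1, 2 and 3 called only 6, 18 and 14 of all tested genes lower, so this loss is not particular to Siglecf. The counts behind it were 591 to 906 in the wild type and 38 and 203 in the mutant.

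Markers of eosinophils gave mixed values. Epx, the eosinophil peroxidase, was at 7.998 to 34.0 CPM in the wild type, against 4.36 and 1.94 CPM in mutant libraries 2 and 3 (adjusted p = 0.0743), and Prg2, the major basic protein, at 124 to 310 CPM against 95.4 and 62.2 CPM (adjusted p = 0.0975). Both were named after their values were seen, and neither passed. Of 9 eosinophil markers 2 rose, 0 fell and the median log2 fold change was -1.26. The pair that rose were Ear2, a ribonuclease also made by monocytes (2.0003 ± 0.351, adjusted p = 0.016), and Ccr3, the eotaxin receptor (2.13 ± 0.43, adjusted p = 0.0242). Without wild-type libraries 1, 2 and 3 in turn 1, 1 and 0 rose, in fits that called 616, 870 and 842 of all tested genes higher. Relative to the list median Siglecf lay at -0.27 to 0.45 log2 units in the wild type and at -0.30 and 0.18 in the mutant, which overlap.

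Siglech, the receptor by which plasmacytoid dendritic cells are commonly recognised, was low in both mutant libraries. It was at 25.0, 29.3 and 33.5 CPM in wild-type libraries 1, 2 and 3 and at 8.635 and 1.16 CPM in mutant libraries 2 and 3, from 1868 to 2460 counts in the wild type and 109 and 63 in the mutant. The mutant libraries were 3.39-fold and 25.2-fold below the wild-type mean, whereas the wild-type libraries lay within 1.34-fold of each other. The wild-type mean was 29.3 ± 4.21 CPM (SD, n = 3) against a mutant mean of 4.90 ± 5.28 CPM (SD, n = 2). The log2 fold change was -2.61 ± 0.82 (SE, adjusted p = 0.0673). It passed in DESeq2 (-2.57, adjusted p = 0.00818) and with upper-quartile scaling (-3.05, adjusted p = 0.0363). DESeq2 called 2380 of 30639 genes lower and upper-quartile scaling 1837 of 17062, against 755 of 17062 in the main fit. The log2 fold change of Siglech was -4.65 without mutant library 2 and -1.77 without mutant library 3. In those fits 1 mutant library was left, and its spread was set by the wild type. Leaving out 1 wild-type library gave adjusted p = 0.139 to 0.161, in fits that called only 6 to 18 of all tested genes lower.

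The other markers of plasmacytoid dendritic cells had a list median in the other direction, with mixed members. Of 12 such markers 4 rose, 0 fell and 8 were not called, with a median log2 fold change of 1.47. Of all tested genes 10.6% rose and 4.43% fell. The log2 fold change was above 0 in 10 of the 12, but was only 0.41 in Ccr9 and 0.51 in Pacsin1, and was -0.14 in Runx2. Bst2, which tethers virions and is also induced by interferon, was at 19.3 to 35.0 CPM in the wild type, against 115 and 83.0 CPM in mutant libraries 2 and 3 (1.89 ± 0.34, adjusted p = 0.0175). Ly6d, which B cells carry too, rose by 2.81 ± 0.66 (adjusted p = 0.0369), and Cd209d and Lag3 rose by 3.11 ± 0.57 (adjusted p = 0.0177) and 4.74 ± 0.91 (adjusted p = 0.0209). The list held 1, 2 and 1 rises without wild-type libraries 1, 2 and 3 in turn, in fits that called 616, 870 and 842 of all tested genes higher. Cox6a2, a mitochondrial subunit enriched in these cells and named after its values were seen, stood with Siglech: it was at 1.16 to 2.25 CPM in the wild type, against 0.555 and 0.0554 CPM in mutant libraries 2 and 3 (adjusted p = 0.132). Siglech lay 1.97 to 3.03 log2 units above the list median in the wild type and -0.68 and -2.97 from it in the mutant. Per Bst2 count there were 0.837 to 1.30 Siglech counts in the wild type and 0.0751 and 0.0140 in the mutant. Several of these markers are shared with B cells. The part in the list of B cells, and of the macrophages, conventional dendritic cells and T cells whose markers also rose, was not tested.

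Siglec1, known as CD169 or sialoadhesin, was the scarcest member. It had 83, 56 and 34 counts in wild-type libraries 1, 2 and 3 and 3 and 0 counts in mutant libraries 2 and 3. These are 1.11, 0.6675 and 0.555 CPM in the wild type and 0.238 CPM in mutant library 2, and the 0 of replicate 3 allows up to 0.0554 CPM (3 counts). Both mutant libraries lay below every wild-type library. Pooled over libraries, 173 counts stood against 3, a wild-type to mutant ratio of 17.5 with an exact 95% interval of 5.898 to 85.8. The interval covers counting error alone, leaves out the spread between libraries and is no test of the genotypes. That ratio rests on the 0 of mutant library 3: against mutant library 2 alone the wild-type mean was 3.275-fold higher. Siglec1 passed the filter on low counts through the wild type, so its place among the tested genes already rested on the higher wild-type counts. The fitted log2 fold change was -3.31 ± 1.51 (SE, adjusted p = 0.146) and depends on the prior count given to the 0. Without mutant library 3 it was -1.71 (adjusted p = 0.129), and without mutant library 2 the mutant arm is a single library with 0 counts, so no weight is given to that fit.

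Macrophage genes went the opposite way. Of 14 macrophage markers 13 rose and 0 fell, with a median of 2.71 on the log2 scale. Their summed level was 775 to 1051 CPM in the wild type and 6405 and 4921 CPM in mutant libraries 2 and 3. Cd68, a lysosomal protein of macrophages, was at 81.6 to 90.1 CPM in the wild type, against 1136 and 914 CPM in the mutant (3.59 ± 0.24, adjusted p = 0.000847). C1qb, a chain of complement C1q, rose by 4.69 ± 0.29 (adjusted p = 0.000757). With 1 wild-type library left out 9 or 10 rose, in fits that called 616 to 870 of all tested genes higher. Relative to the median of these markers Siglec1 lay at -5.15, -5.08 and -5.50 log2 units in the wild type and at -9.09 and -11.11 in mutant libraries 2 and 3 (on log2 of CPM + 0.1, an offset that sets the value of the 0). The libraries in which Siglec1 was scarcest were those with the higher summed macrophage markers.

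**Figure D2:**
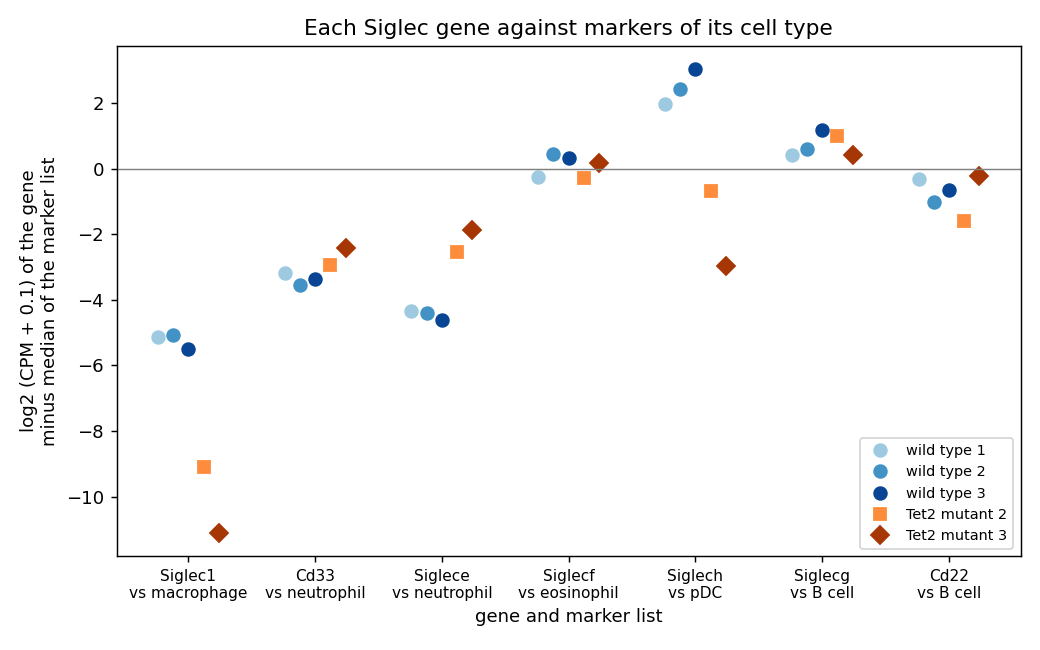
Difference between log2 (CPM + 0.1) of each Siglec gene and the median of a marker list in the same library, for the 3 wild-type libraries (blue circles) and Tet2-mutant replicates 2 (orange square) and 3 (brown diamond); the grey line at 0 marks a gene at the level of its list, and pDC stands for plasmacytoid dendritic cell. Siglec1 and Siglech lie lower against their lists in both mutant libraries, at -9.09 and -11.11 and at -0.68 and -2.97, while Siglecf, Siglecg and Cd22 overlap between the genotypes.

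Compared per length, as TPM over the union of annotated exons, the leading gene was Siglece in all libraries but mutant library 3. Siglece led in the wild type at 225, 136 and 119 TPM, followed by Cd33 at 119, 59.0 and 67.7 TPM. Their order and rank were the same in all 3 wild-type libraries, and Siglec1 was last at 0.231 to 0.505 TPM. Siglecg (42.8 ± 21.2 TPM, SD, n = 3), Siglech (26.3 ± 2.84), Cd22 (18.3 ± 15.2) and Siglecf (11.7 ± 2.08) lay between, and the positions of Siglecg, Siglech, Cd22 and Siglecf changed from library to library. Siglece led again in mutant library 2 at 203 TPM, ahead of Siglecg at 43.2 and Cd33 at 36.7 TPM. In mutant library 3 Siglecg led at 187 TPM, ahead of Cd22 at 114 and Siglece at 74.4 TPM. The sum of the 7 genes was 479, 293 and 252 TPM in the wild type and 296 and 391 TPM in the mutant, which overlap.

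As a share of that sum, Siglece and Cd33 made up 47.0% and 24.8% in wild-type library 1, 46.4% and 20.2% in replicate 2 and 47.4% and 26.8% in replicate 3. In mutant library 2 they made up 68.6% and 12.4%, and in replicate 3 they made up 19.0% and 3.08%. The B cell pair Siglecg and Cd22 held 47.9% and 29.2% in mutant library 3. In the wild type Siglecg held 7.87% to 16.1% and Cd22 2.07% to 7.32%. Siglech held 5.01% to 11.7% in the wild type and 1.44% and 0.179% in mutant libraries 2 and 3, and Siglecf held 2.95% to 4.08% against 0.607% and 0.699%.

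**Figure D3:**
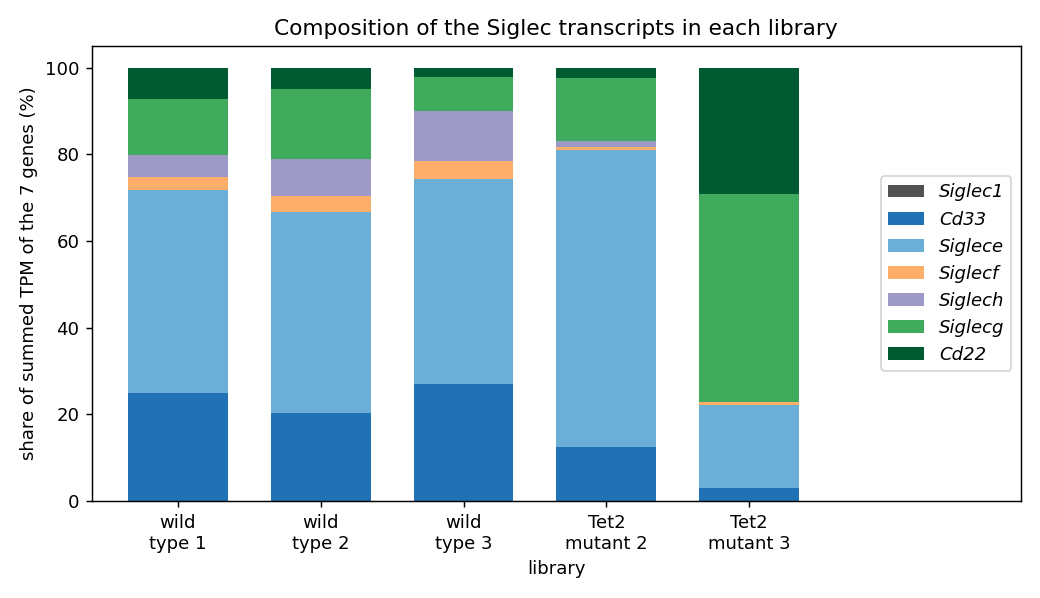
Share of the summed TPM of the 7 Siglec genes held by each gene (stacked bars, percent) in each of the 5 libraries. Siglece holds 46.4% to 47.4% in the 3 wild-type bars, whose other shares vary (Cd22 from 2.07% to 7.32%), and 68.6% in mutant library 2; Siglecg and Cd22 hold 47.9% and 29.2% in replicate 3; Siglec1 is too scarce to be seen.

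Genes with the pattern most like each member over the 5 libraries were sought by the Pearson correlation of log2 CPM among 9769 or 9770 tested genes with a mean of at least 5 CPM. With 5 points such values are a description. Cd33 was closest to complement C3 (r = 0.9998), the lactate carrier Slc16a3 and the myeloid receptor Cd300lb (both 0.999), and C3 stood at 250, 155 and 169 CPM in the wild type, against 162 and 54.8 CPM in mutant libraries 2 and 3. Siglecg was closest to Pik3ca (0.998), Smpd2 (0.997) and the B cell receptor chain Cd79a (0.996), and Cd22 to Rasgrp3 (0.994), Tnfrsf13c, the BAFF receptor (0.99), and Nuak2 (0.989). Siglech was closest to Smarcc1, the replication gene Mcm4 and Psrc1 (0.9999, 0.9999 and 0.9997), and Mcm4 stood at 201 to 236 CPM in the wild type, against 116 and 44.8 CPM in the mutant. Genes close to Siglece were Grk2 (0.9996) and Plekhn1 (0.998), Siglecf was closest to Sfxn5, Ptgir and Ireb2 (all 0.999), and Siglec1 to Ccdc126, Nedd4 (0.9998 and 0.9996) and Asb7 (0.999). A correlation above 0.99 was reached by 178 genes for Siglech and by 1 gene for Cd22.

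The remaining members of the mouse family were scarce. Mag, the myelin-associated Siglec next to Cd22, had 281 to 377 counts in the wild type and 17 and 311 in mutant libraries 2 and 3. That is 4.29 to 4.59 CPM against 1.35 and 5.74 CPM, and it did not pass (log2 fold change -0.31, adjusted p = 0.778). Siglec15, an osteoclast Siglec, had 0, 3 and 4 counts in the wild type and 0 in both mutant libraries, and was not tested.

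Genes that handle sialic acid, the ligand of these receptors, were called in 2 of 8 cases, and sialyltransferases in 1 of 16. This is near the 15.0% of all tested genes. Of the 8 genes listed under sialic acid synthesis and activation 2 rose and 0 fell, with a median log2 fold change of 0.88. That list also holds the transporter Slc35a1 and the lyase Npl, which breaks sialic acid down. Cmah hydroxylates the sialic acid Neu5Ac to Neu5Gc, the form preferred by mouse CD22. It was at 19.1, 14.6 and 9.34 CPM in wild-type libraries 1, 2 and 3 and at 30.3 and 112 CPM in mutant libraries 2 and 3 (2.31 ± 0.57, adjusted p = 0.0414). The other gene that rose was Renbp, the renin-binding protein, an epimerase of amino sugars (1.61 ± 0.31, adjusted p = 0.0221). Neither passed without any 1 wild-type library (adjusted p = 0.0774 to 0.108 for Cmah and 0.0638 to 0.0849 for Renbp), and with plain library totals neither did. The fits without a wild-type library called 616 to 870 of all tested genes higher, against 1801 in the main fit. Cmah also stood at 1.07 (adjusted p = 0.0671) without mutant library 3 and did not pass with upper-quartile scaling (adjusted p = 0.0524).

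Among sialyltransferases, 1 of 16 tested genes rose. St8sia6, which builds alpha2,8-linked disialic acid, a ligand bound by Siglec-E, the product of Siglece, was at 3.79, 3.53 and 4.19 CPM in wild-type libraries 1, 2 and 3 and at 31.4 and 61.3 CPM in mutant libraries 2 and 3. All mutant values lay above all wild-type values, and the log2 fold change was 3.59 ± 0.43 (adjusted p = 0.00411). This call was kept in each of the alternatives run, including each library left out. edgeR called 0 of 6 alpha2,3 sialyltransferases (median 0.30), with 0 at an unadjusted p under 0.05 and 0 calls by DESeq2 or limma-voom. It called 0 of 7 alpha2,6 sialyltransferases (median 0.64), with 2 at an unadjusted p under 0.05, whereas DESeq2 called 2 higher and 1 lower and limma-voom 1 higher and 1 lower. St3gal4 stood at 71.7 to 95.1 CPM in the wild type, against 253 and 75.7 CPM in mutant libraries 2 and 3, and St3gal1 at 22.3 to 27.6 CPM against 17.3 and 113 CPM, so each lay above the wild-type range in one mutant library alone. St6galnac2 was at 0.775 to 12.97 CPM against 43.7 and 48.1 CPM (adjusted p = 0.104 in edgeR, 0.0413 in DESeq2 and 0.0471 in limma-voom). Of 4 tested sialidases and O-acetyl editing genes 0 passed in edgeR, DESeq2 or limma-voom, and 3 had an unadjusted p under 0.05 in edgeR. Casd1, which adds O-acetyl groups to sialic acid, was at 32.6 to 43.0 CPM in the wild type, against 11.96 and 21.4 CPM in the mutant (adjusted p = 0.086). Siae, which removes them, was at 9.67 to 11.8 CPM against 52.9 and 10.5 CPM.

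Signalling partners of the Siglecs were called higher in 4 of 15 cases and lower in 0, with a median of 0.76. Of all tested genes 10.6% were called higher and 4.43% lower, and the list as a set was not tested. Tyrobp, the activating adaptor used by Siglech, was at 363, 385 and 325.5 CPM in wild-type libraries 1, 2 and 3 and at 1164 and 632 CPM in mutant libraries 2 and 3 (1.33 ± 0.31, adjusted p = 0.0359). The adaptor was thus higher where Siglech was lower. Fyn, a Src family kinase, rose by 1.40 ± 0.24 (adjusted p = 0.0143), and Socs3, a cytokine signalling inhibitor, by 2.45 ± 0.41 (adjusted p = 0.0141). The call of Tyrobp was lost without wild-type library 1 (adjusted p = 0.0663) and without wild-type library 3 (adjusted p = 0.0591). The list counted 2 rises without wild-type library 3, a fit in which 842 of 16550 tested genes rose. The phosphatase gene Ptpn6, named after its values were seen, was at 577 to 799 CPM against 1153 and 984 CPM and did not pass (0.71 ± 0.26, adjusted p = 0.0971). Of 6 carriers of Siglec ligands 1 rose, Cd52, a short glycoprotein of lymphocytes and monocytes (2.75 ± 0.35, adjusted p = 0.0054). Cd24a, a ligand carrier recognised by Siglec-G, was at 637 to 1066 CPM in the wild type, against 497 and 375.5 CPM in the mutant (adjusted p = 0.0801) and was also named after its values were seen.

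**Figure D4:**
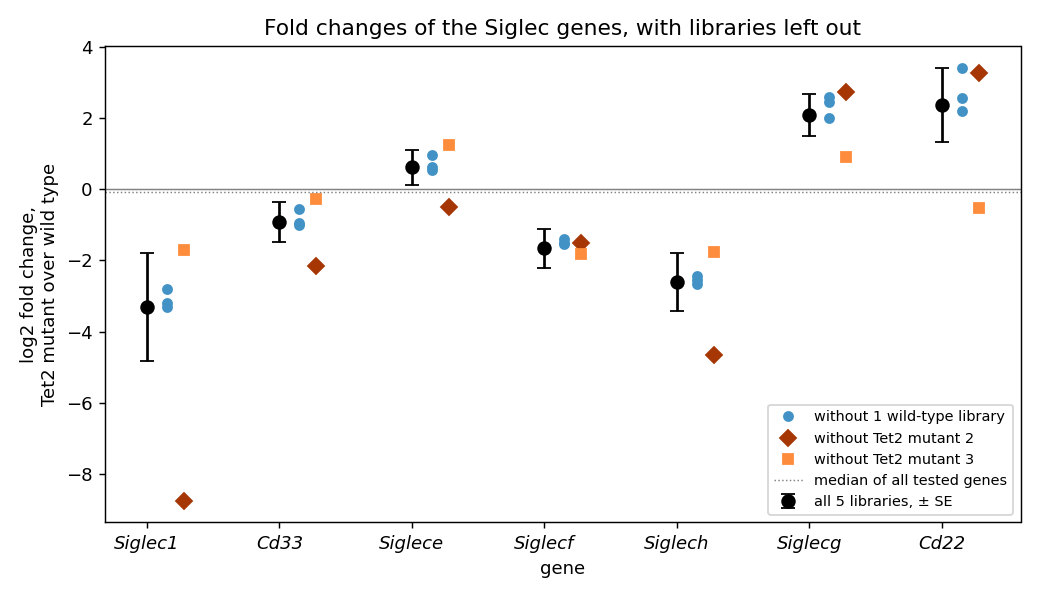
Log2 fold change of Tet2 mutant over wild type for each Siglec gene from all 5 libraries (black, ± SE) and with 1 library left out (blue circles, a wild-type library; brown diamond, mutant library 2; orange square, mutant library 3), with grey lines at 0 and at the median of all tested genes. Cd22 turns from 3.26 to -0.53 and Siglece from -0.51 to 1.23 depending on which mutant library is left, while Siglecf stays between -1.83 and -1.39.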

How the data were processed

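The authors deposited 1 table of gene counts per library, raw and not normalized, with 55291 gene symbols each. Trimmomatic, STAR and the build mm10 are named per the submitters' processing notes. The counter, annotation and strand setting were not given in the sources used here. RNA was taken with a Qiagen kit and libraries made with a SMARTer kit, per the labels' protocols, which name no molecular identifiers, so intervals and floors cover counting error only.

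Counts were analysed in R 4.3.3 with edgeR 4.0.16 (filterByExpr, 17062 genes tested, TMM, quasi-likelihood F-test, Benjamini-Hochberg adjustment, called under 0.05; the common biological coefficient of variation was 0.507). The SE was taken as the log2 fold change over the root of F. The test was checked on simulated counts in which few genes changed, as many up as down. That check does not cover the scaling between libraries when many genes differ, as in these data. Alternatives used DESeq2 1.42.0, limma 3.58.1 (voom), other scalings and filters, the replicate block and each library left out; plain library totals were added after the data were seen. A level of 3 counts was the floor. Positions and exon lengths came from GENCODE M21 (16704 tested symbols matched, 7 of 7 members) and promoters from RefSeq (6 of 7 members matched).

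The members and lists were chosen with earlier results of these data known. Named genes were the members, Tet2, up to 4 called genes per list with the smallest adjusted p (up to 2 by unadjusted p where none was called), and the 3 genes most like each member; not all of them are reported here.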

Additional observations from a re-analysis of the deposited data

How the results depend on the processing

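The number of tested genes called higher in the mutant was 1801 and varied: 3059 with no filter, 3149 in DESeq2, 752 with the replicate block, 1181 with plain library totals and 616 to 4904 with 1 library left out. For genes called lower it was 755, against 1837 with upper-quartile scaling, 1498 with no filter, 478 with a minimum of 1 CPM in 2 libraries, 2380 in DESeq2, 1365 in limma-voom, 232 with the replicate block, 2877 with plain library totals and 6 to 5958 with 1 library left out. Those counts came from 17062 genes in the main fit, 30639 with no filter and in DESeq2, and 12925 with the 1 CPM minimum. With 1 library left out 16075 to 18508 genes were tested. Of the members, 0 were called in either direction in the main fit. Higher calls numbered 2 with no filter, 1 in DESeq2, 1 in limma-voom, 2 with the replicate block and 0 to 2 with 1 library left out. Lower calls numbered 1 with upper-quartile scaling, 1 with no filter, 2 in DESeq2, 1 in limma-voom, 1 with the replicate block, 2 with plain library totals and 0 to 4 with 1 library left out. The calls were Siglecg (2.08 with no filter, 2.12 in DESeq2, 2.13 in limma-voom, 2.24 with the block), Cd22 (2.37 with no filter, 2.36 with the block), Siglech (-3.05 with upper-quartile scaling, -2.65 with no filter, -2.57 in DESeq2, -3.59 in limma-voom, -3.30 with the block, -3.24 with plain totals) and Siglecf (-1.61 in DESeq2, -2.15 with plain totals). With 1 library left out the log2 fold changes ranged from -8.74 to -1.71 for Siglec1, -0.51 to 1.23 for Siglece, -1.83 to -1.39 for Siglecf, 0.90 to 2.72 for Siglecg, -4.65 to -1.77 for Siglech, -2.17 to -0.27 for Cd33 and -0.53 to 3.41 for Cd22. All member calls among these arose without a mutant library, where the spread of the lone one was set by the wild type. Directions also turned for Mag (-1.73 to 0.36), St3gal4 (-0.0756 to 1.66), St3gal1 (-0.49 to 2.22) and Siae (-0.0222 to 2.31). The cause was not tested. Replicate numbers 2 and 3 occur in both genotypes, but same-numbered libraries deviated from their genotype means with correlations of -0.027 and -0.024, so the numbers were not taken as pairs. The all-gene median shifted from -0.07 to -0.35 under upper-quartile scaling and to -0.58 under plain totals. At 17459808 counts mutant replicate 2 limits what can be said of Siglec1.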

Other observations

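Precursor and other B cell genes had medians of opposite sign. Of 7 genes of B cell precursors 0 passed in edgeR or limma-voom and 1 had an unadjusted p under 0.05 in edgeR. With no filter on low counts 3 were called lower, in a fit that called 1498 of 30639 genes lower. Their median log2 fold change was -2.21, against 1.82 for the 14 genes of B cells at large. Dntt, the polymerase of antigen receptor joining, was at 9.63 to 39.2 CPM in the wild type, against 7.37 and 2.97 CPM in mutant libraries 2 and 3 (adjusted p = 0.0767 in edgeR). It was called lower in DESeq2 (-2.18, adjusted p = 0.0156), with upper-quartile scaling (adjusted p = 0.0445) and with plain library totals (adjusted p = 0.0356), and not in limma-voom (adjusted p = 0.0932). Igll1, the surrogate light chain, was at 3.40 to 45.8 CPM against 7.45 and 0.978 CPM (adjusted p = 0.156). Against the median of these precursor genes, Cd22 stood at 0.24 to 2.46 log2 units in the wild type and at 1.75 and 6.52 in mutant libraries 2 and 3. Siglecg stood at 1.85 to 4.31 and at 4.35 and 7.17.

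Il5ra, the interleukin-5 receptor chain of eosinophils and B-1 cells, was in the eosinophil list and did not follow Siglecf. It was at 0.966 to 3.11 CPM in the wild type, against 2.46 and 41.2 CPM in mutant libraries 2 and 3 (adjusted p = 0.0641). It was highest in the library that was also highest in Siglecg and Cd22, and it was named after its values were seen.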
